A study of Homo sapiens with 4 samples.

Results

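The loci of 5 human genes, ADAMTS16, FBXL7, MGAT5, ASAP1 and BPIFB4, were mapped for open chromatin in 786-O cells with and without DEK. They are 5 of 19974 protein-coding genes and were chosen because they held many regions that peak calling found in DEK KO cells alone. 786-O is a human renal carcinoma cell line, and DEK is a DNA-binding chromatin protein known as a histone chaperone. ATAC-seq reads open chromatin as the DNA that a transposase can cut and tag. The study holds 2 DEK KO libraries and 2 WT control libraries. DEK KO cells came from Cas9-expressing 786-O cells that received guide RNA virus against DEK and were sorted singly, and WT controls were Cas9-expressing cells of WT genotype. Both groups carry Cas9, introduced by a lentivirus with blasticidin resistance, and descend from a Cas9-expressing clone. Whether replicates 1 and 2 of a group are different clones is not stated in the labels. Peak names in the DEK KO lists carry a different tag in each replicate, whose meaning is not given, so effects of genotype and of clone cannot be told apart.

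Each library was represented by the authors' own list of peaks on GRCh38. Peaks of the 4 lists that overlapped by at least 1 bp were merged into 138467 regions. A KO-only region had a peak in each DEK KO list but none in the WT control lists, and a WT-only region had a peak in each WT control list but none in the DEK KO lists. Each locus was the gene span plus 50 kb on each side. The 5 windows together held 199 merged regions. Within its list, each peak was ranked by the percentile of its −log10 p, where 0 is the calling limit and 100 the strongest peak. A list holds nothing below its limit, a q-value of about 0.05, so a missing peak does not show that the DNA was closed. Where a pair of values is given for a group, replicate 1 comes before replicate 2. If a list had several peaks in a region, the values are those of the highest-ranked peak.

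The genes were picked by the calls in these same lists. All differences between DEK KO and WT control at them are therefore descriptions without a test. The choice was made on the surplus of KO-only over WT-only regions nearest to a gene's ends within 50 kb. By that count ADAMTS16 had 6 KO-only and 1 WT-only region, FBXL7 and MGAT5 had 5 and 0, and ASAP1 and BPIFB4 had 4 and 0. The surplus of 4 was shared by 15 genes outside the choice, CCNE1 among them, and a further 102 genes had a surplus of 3.

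The 5 genes do not form a pathway. ADAMTS16 encodes a secreted metalloprotease of a family that remodels extracellular matrix. FBXL7 encodes an F-box protein, the subunit that brings substrates to an SCF ubiquitin ligase. MGAT5 encodes the glycosyltransferase that adds a branch to N-glycans on cell surface proteins, and ASAP1 a GTPase-activating protein for ARF proteins that acts on adhesions and the actin cytoskeleton. BPIFB4 encodes a secreted protein of the BPI fold family, whose genes lie in a cluster on chromosome 20. Open regions at gene starts usually mark promoters, and those far from starts often include enhancers and insulators.

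The starts of the genes show how differently these loci are built, and the RefSeq windows from 250 bases before to 50 bases after each annotated start (GRCh38.p14, plus strand) are given for the 3 of 5 genes that the table holds. Capitals mark CpG dinucleotides, which are dense in promoters that are open in many cell types.
FBXL7, the first start, chr5:15499930-15500229: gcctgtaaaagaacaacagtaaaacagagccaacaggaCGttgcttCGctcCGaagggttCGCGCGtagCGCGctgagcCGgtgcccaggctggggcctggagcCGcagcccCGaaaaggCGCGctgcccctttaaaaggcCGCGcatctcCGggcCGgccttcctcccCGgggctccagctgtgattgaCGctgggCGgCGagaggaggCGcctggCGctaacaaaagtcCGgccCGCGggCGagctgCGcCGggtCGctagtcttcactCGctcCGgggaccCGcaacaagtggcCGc
FBXL7, the second start, chr5:15501188-15501487: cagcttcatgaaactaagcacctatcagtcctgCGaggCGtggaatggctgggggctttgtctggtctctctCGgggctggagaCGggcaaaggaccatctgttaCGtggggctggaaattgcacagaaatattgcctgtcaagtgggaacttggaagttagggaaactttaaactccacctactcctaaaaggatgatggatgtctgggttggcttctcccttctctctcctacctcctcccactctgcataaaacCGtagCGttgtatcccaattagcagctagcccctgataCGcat
MGAT5, the first start, chr2:134119685-134119984: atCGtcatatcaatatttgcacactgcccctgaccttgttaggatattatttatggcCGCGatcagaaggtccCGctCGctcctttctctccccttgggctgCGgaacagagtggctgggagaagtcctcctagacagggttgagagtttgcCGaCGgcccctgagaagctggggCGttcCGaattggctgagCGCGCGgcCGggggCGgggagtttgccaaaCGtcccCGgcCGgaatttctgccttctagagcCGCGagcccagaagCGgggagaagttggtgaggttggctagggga
MGAT5, the second start, chr2:134253822-134254121: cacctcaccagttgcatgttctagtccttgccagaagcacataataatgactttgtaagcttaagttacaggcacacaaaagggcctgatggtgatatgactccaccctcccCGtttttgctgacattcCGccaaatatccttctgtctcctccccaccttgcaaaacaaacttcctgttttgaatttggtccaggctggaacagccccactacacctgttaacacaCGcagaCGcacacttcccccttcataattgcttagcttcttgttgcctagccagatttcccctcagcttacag
BPIFB4, its start, chr20:33079393-33079692: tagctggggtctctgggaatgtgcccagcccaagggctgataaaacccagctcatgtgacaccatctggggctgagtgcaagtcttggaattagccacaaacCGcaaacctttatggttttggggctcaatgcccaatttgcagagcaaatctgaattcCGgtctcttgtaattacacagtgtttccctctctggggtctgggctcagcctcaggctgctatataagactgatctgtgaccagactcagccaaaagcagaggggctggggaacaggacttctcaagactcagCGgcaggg
The first FBXL7 window held 34 CpGs and the first MGAT5 window 21, against a median of 14 over 35116 such windows. The second FBXL7 window held 8, the second MGAT5 window 4 and the BPIFB4 window 3. Both FBXL7 starts and the first MGAT5 start lay under regions called in all 4 lists. No region lay over the second MGAT5 start, where the nearest was 7856 bp away, nor over the BPIFB4 start, where the nearest was 2383 bp away. The open starts were thus called in both genotypes, and no KO-only region touched any of the 5 windows.

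On both strands, the letters GGGCGG occurred once in the first FBXL7 window and once in the first MGAT5 window, and they are found in 45.0% of all windows. CCAAT occurred once in the second FBXL7, the first MGAT5 and the BPIFB4 windows, and in 34.6% of all windows. TATAAA, found in 11.5% of windows, and TGANTCA, found in 7.71%, occurred in none of the 5. These are matches of letters in windows of 300 bases, not binding sites.

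The 5 loci held 27 KO-only regions and 1 WT-only region among 199. KO-only regions were 13.6% of the regions at these loci (95% exact binomial interval 9.14 to 19.1, counting error only), against 6.26% of all merged regions, and WT-only regions were 0.503% against 2.57%. Because this contrast chose the genes, nothing is read from the gap. The loci differed among themselves. KO-only shares were 50% at BPIFB4 (4 of 8 regions), 17.6% at MGAT5 (6 of 34), 15% at ADAMTS16 (6 of 40) and 13.5% at FBXL7 (7 of 52), but 6.15% at ASAP1 (4 of 65), close to the background share. Regions called in all 4 lists were 45.2% at the 5 loci and 45.3% in the union.

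**Figure D1:**
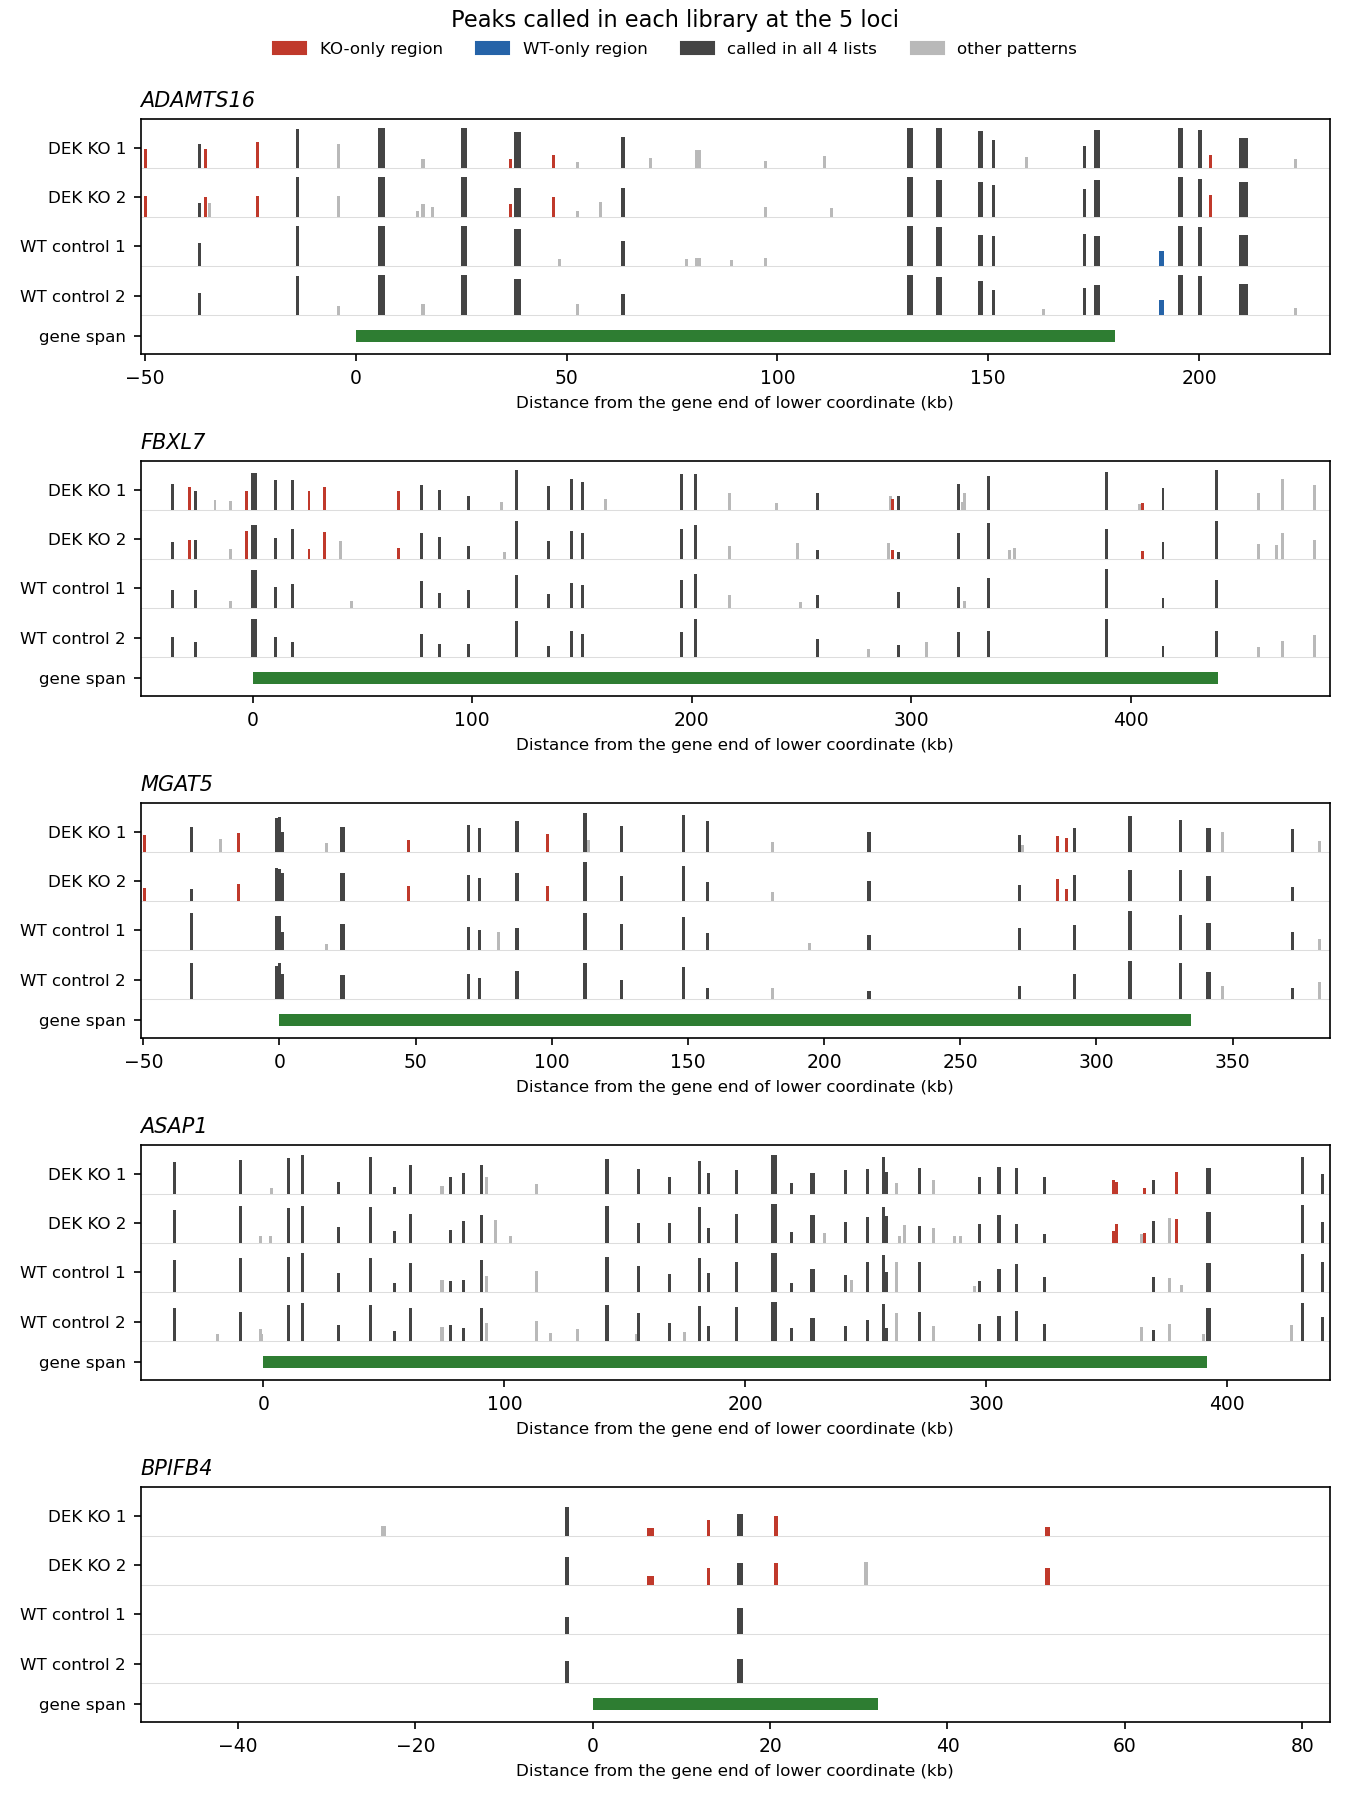
Peaks of each library along the 5 loci, by distance in kb from the gene end of lower coordinate, with DEK KO lists above WT control lists, where each bar is a merged region that the list called, at its width or a minimum visible width and with a height that grows with its percentile in the list. Green bars are gene spans, and the red bars, the 27 KO-only regions, are shorter than most dark bars, the regions called in all 4 lists.

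All 5 windows were longer than the median window over all genes, that of BPIFB4 only slightly. The 5 windows had a median of 434.7 kb and of 6 KO-only regions, against 124.2 kb and 0 over all 19974 genes, of which 59.4% had none. Per 100 kb, BPIFB4 had 3.03 KO-only regions, ADAMTS16 had 2.14, MGAT5 had 1.38, FBXL7 had 1.30 and ASAP1 had 0.814. At least this density was reached by 34 genes for BPIFB4 and 212 for ADAMTS16, but by 1259 for MGAT5, 1368 for FBXL7 and 4403 for ASAP1, the gene itself included. By count, 26 genes reached the 7 regions of FBXL7, 42 the 6 of ADAMTS16 and MGAT5, and 234 the 4 of ASAP1 and BPIFB4.

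Of the 27 KO-only regions, 18 overlapped the span of the chosen gene and 9 lay in its flanks. None lay within 1 kb of either end of that gene. The reference table used here gives gene spans without exons, so exonic and intronic positions were not told apart. The regions were between 282 and 1309 bp wide with a median of 533 bp, the same median as over all 8673 KO-only regions.

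ADAMTS16 (chromosome 5, 5140330 to 5320304) had 31 peaks in each DEK KO list, against 22 and 21 in the WT control lists. That is a ratio of means of 1.44, against 1.12 for the whole lists. Here and at the other loci, the peaks of the KO-only regions that chose the gene are part of these counts. Nothing is therefore read from the gap. No other protein-coding gene reached into its window. The strongest ATAC signal of the window was common to both genotypes. A region inside the gene (5145736 to 5147236) had folds over background, as the authors' peak caller gave them, of 9.38 and 10.7 in the DEK KO lists, against 9.15 and 9.40 in the WT control lists. Another (5165297 to 5166634) had folds of 10.04 and 14.3 in the DEK KO lists, against 10.3 and 10.02 in the WT control lists. In the flank before the gene (5126091 to 5126910) the folds were 10.8 and 15.7 in the DEK KO lists, against 13.1 and 12.4 in the WT control lists. At each of these sites replicate 2 of DEK KO had the highest fold.

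The KO-only regions of ADAMTS16 lay mostly outside the gene. The 3 with the highest lower percentiles stood in the flank of lower coordinate, 49.6, 35.5 and 22.9 kb from the gene. The nearest to the gene of these (5116834 to 5117437) had folds of 7.12 and 6.22 in the DEK KO lists, no peak in either WT control list, and DEK KO percentiles of 57.6 and 43.3. The middle region (5104542 to 5104843) had folds of 4.63 and 5.32. The far region (5090327 to 5090745), at the very edge of the window, had folds of 5.72 and 6.97. These 3 flanking regions were called in DEK KO at moderate rank, with lower percentiles between 39.2 and 43.3.

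Inside the gene, KO-only regions began 36.5 and 46.6 kb from its end of lower coordinate. The first (5176782 to 5177314) had folds of 2.57 and 3.28 in the DEK KO lists and lay 537 bp from a WT control peak. The other (5186976 to 5187436) had folds of 3.48 and 5.35. Both were weaker than the flanking group, with lower percentiles of 9.26 and 19.5. The last KO-only region (5342901 to 5343272), 22.6 kb beyond the end of higher coordinate, had folds of 2.43 and 3.52.

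The WT-only region of the 5 loci stood in the same flank of ADAMTS16 (5330889 to 5332078), 10.6 kb from the gene. It had no peak in either DEK KO list and folds of 2.46 and 2.35 in the WT control lists, with percentiles of 26.5 and 27.9. ADAMTS16 thus had calls of both kinds in the flank of higher coordinate.

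FBXL7 (chromosome 5, 15500180 to 15939793), the longest of the 5 genes at 439.6 kb, had 42 and 41 peaks in the DEK KO lists, against 27 in each WT control list. The ratio of means was 1.54. Of its 52 regions 14 (26.9%) were called in a single DEK KO list, against 18.6% of all merged regions, and 4 (7.69%) in a single WT control list, against 10.8%. No other protein-coding gene lay in the window.

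The open region over the starts of FBXL7 (15499647 to 15502144) was called in every list. Its folds were 4.89 and 4.74 in the DEK KO lists, against 5.65 and 5.85 in the WT control lists. A KO-only region stood 2.75 kb from that end of the gene (15497034 to 15497430), before the start, with folds of 2.51 and 3.54 in the DEK KO lists. Its percentile of 64.3 in replicate 2 was the highest of any KO-only peak at the 5 loci, although its percentile in replicate 1 was 39.6. The DEK KO summits of this region lay 169 bp apart.

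Around this start, 5 of the 7 KO-only regions of FBXL7 fell between 28.4 kb before it and 65.8 kb after it. The strongest (15532833 to 15533462) had folds of 6.09 and 8.28 in the DEK KO lists and percentiles of 50.1 and 60.4. Of the 27 KO-only regions it alone had both percentiles above 50, and the nearest WT control peak was 11414 bp away. The region before the gene (15471120 to 15471762) had folds of 5.45 and 5.68. The regions that began 25.4 and 65.8 kb into the gene had folds of 5.33 and 5.69 in replicate 1. Their folds in replicate 2 were lower, at 3.90 and 4.14. In the second (15565955 to 15567263) the DEK KO summits lay 572 bp apart, so these peaks may not mark 1 site.

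The other KO-only regions of FBXL7, 291.1 and 405.0 kb into the gene, were close to the calling limit. The first (15791290 to 15792313) had folds of 3.05 and 3.03 in the DEK KO lists, and the other (15905172 to 15905786) folds of 3.09 and 3.45. Their lower percentiles were 7.96 and 2.86. In the first, replicate 1 had 2 peaks. Its higher-ranked peak and the replicate 2 peak overlapped by 40.2% of the shorter peak, with summits 175 bp apart, so they may not mark 1 site. The first lay 147.5 kb from the nearer gene end, and the region that began 65.8 kb into the gene was also more than 50 kb from either end. Neither was counted by the nearest-end rule that chose the gene.

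MGAT5 (chromosome 2, 134119935 to 134454621) had 32 and 28 peaks in the DEK KO lists, against 23 in each WT control list. The ratio of means was 1.30. Its window reached into TMEM163, the next gene, where no KO-only or WT-only region lay. At its first start a region called in every list (134119426 to 134120120) had folds of 5.21 and 5.16 in the DEK KO lists, against 5.31 and 5.57 in the WT control lists.

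The 6 KO-only regions of MGAT5 were spread along the window in 3 places. Those before the gene lay 49.3 and 14.9 kb from it. The nearer (134104484 to 134105027) had folds of 5.66 and 5.70 in the DEK KO lists, and the farther (134070226 to 134070680) folds of 4.20 and 4.22. The DEK KO libraries agreed closely on these sites, with summits 1 bp apart at each.

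Within MGAT5, regions began 47.1 and 98.1 kb after the start. The first (134167051 to 134167466) had folds of 4.12 and 5.18 in the DEK KO lists, and the other (134218001 to 134219005) folds of 5.34 and 5.18. A pair toward the other end of the gene began 285.5 and 288.8 kb after the start. The stronger of the pair (134405456 to 134406187) had folds of 4.34 and 6.31, and the weaker (134408707 to 134408988) folds of 3.6 and 3.53. All 6 lay in the lower middle of the lists, with lower percentiles between 16.8 and 31.95, and none fell under the 10th percentile.

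ASAP1 (chromosome 8, 130052104 to 130443674) had 44 and 50 peaks in the DEK KO lists, against 43 and 49 in the WT control lists. The groups overlapped, and the ratio of means was 1.02. The region over its end of higher coordinate (130443228 to 130445406) was called in every list, with folds of 4.33 and 6.24 in the DEK KO lists, against 5.10 and 5.90 in the WT control lists. CYRIB, a regulator of RAC1 signalling, reached into the window. Of its 65 regions 9 (13.8%) were called in a single DEK KO list, against 18.6% of all merged regions, and 11 (16.9%) in a single WT control list, against 10.8%.

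The KO-only regions of ASAP1 stood together. All 4 lay within 26.9 kb, between 12.1 and 38.7 kb from the gene end of higher coordinate. The strongest (130430844 to 130431612) had folds of 5.07 and 5.90 in the DEK KO lists and percentiles of 47.5 and 54.2, with a WT control peak 1585 bp away. Beside each other stood a region (130404685 to 130404980) with folds of 4.31 and 3.95 and another (130406045 to 130406521) with folds of 3.87 and 5.58. The weakest of all 27 (130417595 to 130417948) had folds of 2.65 and 3.51, a lower percentile of 1.20, and a WT control peak 509 bp away.

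The opposite pattern also occurred inside ASAP1. A region (130314441 to 130315522) was called in DEK KO replicate 1 with a fold of 2.79 and not called in DEK KO replicate 2, against folds of 5.68 and 4.82 in the WT control lists. At ASAP1 1 region (1.54%) was called in both DEK KO lists and 1 WT control list, against 5.93% of all merged regions, and 5 (7.69%) in 1 DEK KO list and both WT control lists, against 5.23%.

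BPIFB4 (chromosome 20, 33079643 to 33111751) was the shortest of the 5 genes at 32.1 kb and had the fewest open regions. Its window held 7 peaks in each DEK KO list, against 2 in each WT control list. BPIFB6 and BPIFB3, neighbours of the same family, also reached into the window, but no KO-only region touched them. Of its 8 regions, 2 (25%) were called in all 4 lists, against 45.3% of all merged regions. KO-only regions, by which the gene was chosen, were 4 (50%), against 6.26%. Another 2 (25%) were called in a single DEK KO list, against 18.6%. Shares of 8 regions are imprecise.

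The strongest KO-only region of BPIFB4 (33100030 to 33100556) lay inside the gene with folds of 4.79 and 5.71 in the DEK KO lists and percentiles of 40.0 and 47.7. The others inside the gene had folds of 4.39 and 4.82 (33092515 to 33092845) and of 3.39 and 3.80 (33085726 to 33086534). At this last region the DEK KO peaks overlapped by 13.7% of the shorter peak with summits 466 bp apart, so they may not mark 1 site. The region beyond the gene (33130685 to 33131255), 18.9 kb away, had folds of 3.47 and 5.61, and its nearest WT control peak was 34129 bp away. Fold and rank were higher in replicate 2 at all 4.

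**Figure D2:**
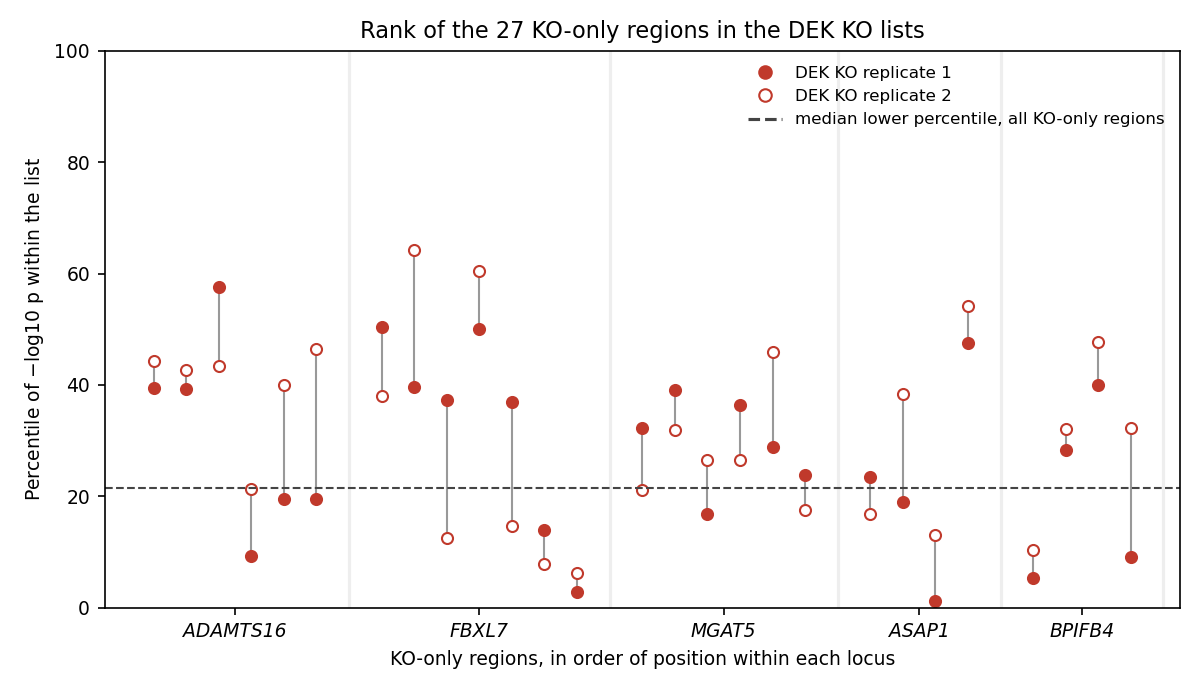
Percentile of −log10 p of the 27 KO-only regions within the lists of DEK KO replicate 1 (filled) and replicate 2 (open), in order of position at each locus. The dashed line is the median lower percentile of all 8673 KO-only regions, 21.6, and a single region, at FBXL7, has both points above 50.

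The KO-only regions of the 5 loci ranked low in their lists, and so did KO-only regions elsewhere. Their lower percentile had a median of 19.5 (quartiles 13.6 and 38.6), against 21.6 (10.5 and 36.2) over all KO-only regions. Both percentiles passed 50 in 1 of 27 (3.70%), against 10.1% of all KO-only regions, and the lower was under 10 in 6 of 27 (22.2%), against 21.0%. Folds at 54 DEK KO peaks, the highest-ranked of each region in each list, ran from 2.43 to 8.28. Summits in the DEK KO lists lay less than 100 bp apart in 23 of 27 (85.2%), against 73.9% of all KO-only regions. A WT control peak stood within 1 kb of 3 of the 27 (11.1%), against 6.93% of all KO-only regions.

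The surplus was not seen among the highest-ranked peaks. Among the 50000 highest-ranked peaks of each list, the 5 loci held 1 KO-only region, at FBXL7. The cut gave 3 WT-only regions, 2 at ASAP1 and 1 at BPIFB4. The whole lists gave 0 at either gene, so these regions had lower-ranked DEK KO peaks. The WT-only share of all merged regions was not computed with this cut or the limits below. Nothing is therefore read from the WT-only counts under them. The cut also removes more peaks from the DEK KO lists, which are longer. With it, KO-only regions were 1.22% of regions at the loci, against 5.69% in the union. Among peaks with −log10 q of at least 5 the counts were 16 and 4, and KO-only regions were 11.2% at the loci against 6.54% in the union. At ASAP1 1 region was then KO-only and 3 counted as WT-only. Each of these 3 had a weaker peak in DEK KO replicate 1 (−log10 q of 2.53, 3.38 and 4.07) that the limit removed. At BPIFB4 2 were KO-only. With lists of equal length the counts were 21 and 2, and KO-only regions were 11.5% at the loci against 5.16% in the union, with 2 at BPIFB4. Without DEK KO replicate 1 or 2, a single DEK KO list is enough for the class. KO-only counts over the 5 loci were then 49 (26.3%) and 43 (24.0%), against 17.2% and 17.3% in the union. The KO-only regions that chose the genes stay in these counts, so nothing is read from the gap.

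**Figure D3:**
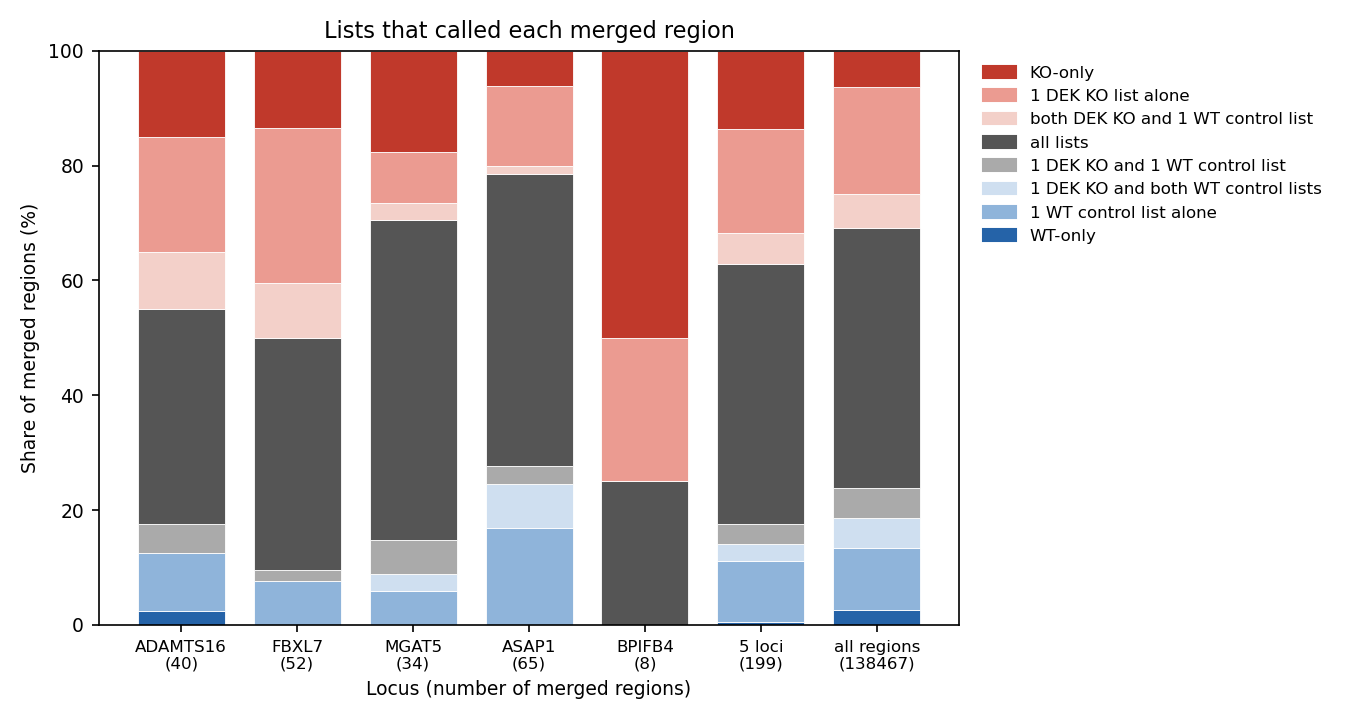
Share of merged regions (%) by the lists that called them, for each locus, the 5 loci together and all 138467 regions, with the number of regions in brackets, red shades for more DEK KO than WT control lists and blue shades for fewer. KO-only regions take 50% at BPIFB4 and 6.15% at ASAP1, against 6.26% over all regions.

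Pooled over the loci, calls in a single list did not show the same surplus. At the 5 loci 36 of 199 regions (18.1%) were called in 1 DEK KO list alone, against 18.6% in the union, and 21 (10.6%) in 1 WT control list alone, against 10.8%. Of the 36, 15 were from DEK KO replicate 1 and 21 from replicate 2. Both pooled shares are close to the background, but the loci differed. Calls in 1 DEK KO list alone ran from 8.82% at MGAT5 (3 of 34) to 26.9% at FBXL7 (14 of 52). Those in 1 WT control list alone ran from 0% at BPIFB4 (0 of 8) to 16.9% at ASAP1 (11 of 65).

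Regions called in all 4 lists ranked differently from locus to locus. A rank difference here is the mean percentile in the DEK KO lists minus that in the WT control lists. The DEK KO lists were longer (102760 and 99508 peaks, against 89563 and 90409 in the WT control lists), so the difference does not measure a change in accessibility. Its median over all 62686 such regions was 1.33. Both DEK KO percentiles lay above both WT control percentiles in 31.1% of them, and below in 19.2%.

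At FBXL7 the median difference was 11.2, and both DEK KO percentiles were above in 12 of 21 regions and below in 2. At MGAT5 it was 5.36 with 7 of 19 above and 4 below, and at ADAMTS16 it was 0.439 with 6 of 15 above and 2 below. At ASAP1 it was -0.455, with 6 of 33 above and 9 below. Over the 5 loci 32 of 90 regions (35.6%) were above and 18 (20.0%) below, close to the background shares.

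The regions with the widest gaps lay at FBXL7 and MGAT5. At FBXL7, a region 231 bp inside the gene end of higher coordinate, its 3′ end (15938800 to 15939562), had folds of 13.2 and 12.4 in the DEK KO lists, against 7.12 and 6.75 in the WT control lists. Its percentiles were 99.5 and 95.1 in DEK KO, against 63.6 and 59.9 in WT control. The groups did not overlap, and this was the most positive difference of the 90 (35.6).

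The most negative (-52.4) stood 31.8 kb before MGAT5 (134087051 to 134088169). Its folds were 5.82 and 4.14 in the DEK KO lists, against 10.1 and 8.59 in the WT control lists, and its percentiles were 54.9 and 17.5 in DEK KO, against 89.8 and 87.5 in WT control. It lay between the KO-only regions in that flank, so neighbouring sites differed in opposite directions.

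Smaller gaps were seen at the other genes, in both directions. ASAP1 had differences from -25.3 to 26.0. Its most positive region (130134581 to 130135378) had percentiles of 44.3 and 47.8 in DEK KO, against 19.1 and 21.0 in WT control, and its most negative (130323663 to 130325041) 57.8 and 31.5 in DEK KO, against 71.7 and 68.3 in WT control. Near the end of higher coordinate of ADAMTS16, a region (5315520 to 5316831) had folds of 6.84 and 7.77 in the DEK KO lists, against 5.52 and 5.25 in the WT control lists, and a difference of 22.4. Inside ADAMTS16 (5177851 to 5179484) the percentiles were 86.5 and 67.2 in DEK KO, against 91.9 and 87.7 in WT control, a difference of -12.96. The shared regions of BPIFB4 went both ways. The region before its start (33076477 to 33077010) had folds of 8.18 and 8.34 in DEK KO, against 5.66 and 6.25 in WT control, and that inside the gene (33095853 to 33096556) had 5.04 and 5.16 in DEK KO, against 7.71 and 6.21 in WT control. A fold belongs to its own list, and these were not scaled to each other.

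**Figure D4:**
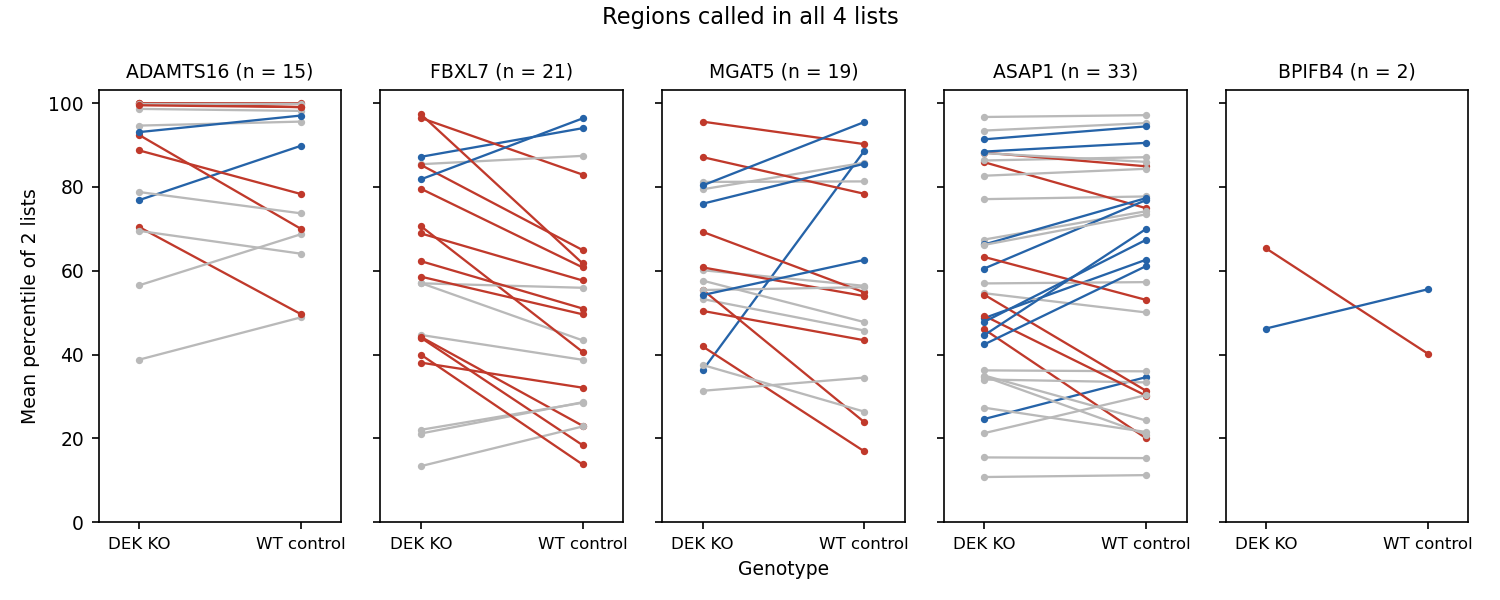
Mean percentile in the DEK KO lists (left) and in the WT control lists (right) of each region called in all 4 lists, with 1 line per region, red where both DEK KO percentiles lay above both WT control percentiles, blue where both lay below and grey for neither. FBXL7 has 12 red and 2 blue lines, and ASAP1 has 6 red and 9 blue.

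The chromatin around the loci was compared with the loci themselves. Within 1 Mb outside the window, KO-only regions were 4.35% at ADAMTS16 (8 of 184), 5.19% at FBXL7 (12 of 231), 4.63% at ASAP1 (5 of 108) and 6.74% at BPIFB4 (12 of 178). These are near or below the share of 6.26% in the union. At MGAT5 the surroundings had 14.4% (17 of 118, 95% exact binomial interval 8.62 to 22.1), near the 17.6% of the window, and 5.51% from 1 to 5 Mb away. MGAT5 thus lay in a stretch with many KO-only calls, while the surroundings of the other 4 windows were near or below the background. The windows were chosen by KO-only calls and their surroundings were not, so nothing is read from the gap between them. On the rest of their chromosomes the share ran from 5.65% for MGAT5 to 6.58% for BPIFB4.

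**Figure D5:**
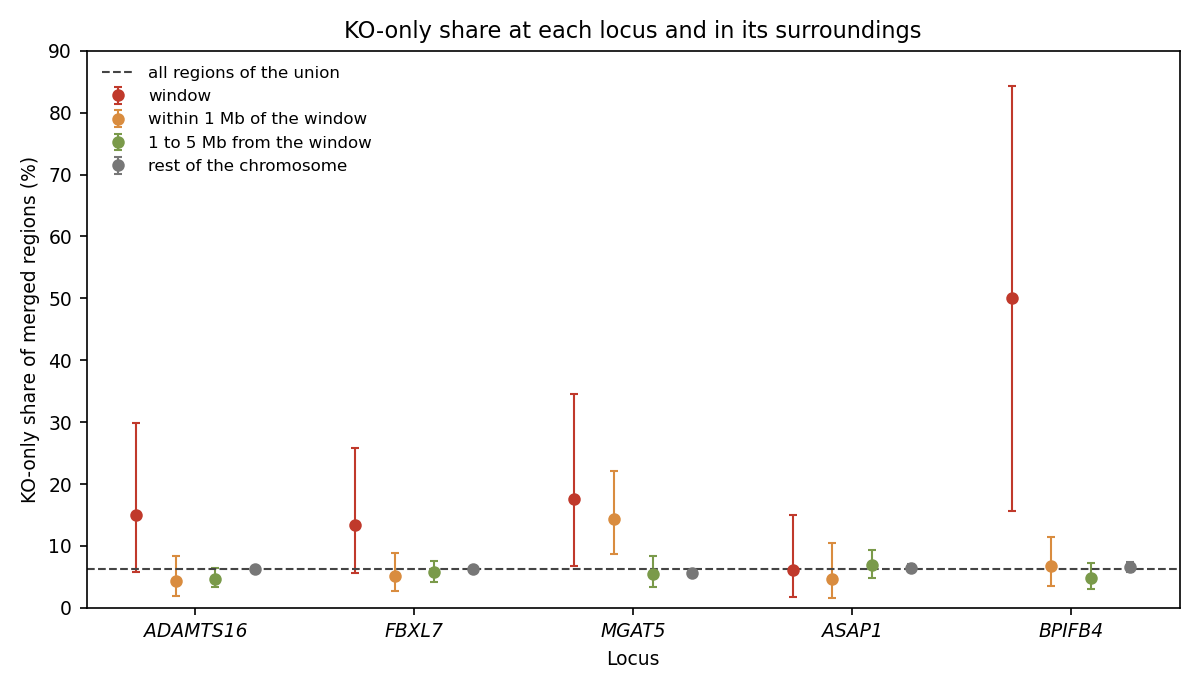
KO-only share of merged regions (%) in each window, within 1 Mb of it, from 1 to 5 Mb away and on the rest of the chromosome, with 95% exact binomial intervals that cover counting error only and a dashed line at 6.26%, the share in the union. At MGAT5 the surroundings within 1 Mb reach 14.4%, and the wide interval at BPIFB4 reflects its 8 regions. The windows, unlike their surroundings, were chosen by KO-only calls.

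Relatives of the 5 genes were counted in the same windows, by family lists chosen with earlier results of these data known. Over all other genes 40.5% had a KO-only region, 34.0% had more KO-only than WT-only regions and 11.5% had fewer. Of 18 other ADAMTS proteases, 12 had more KO-only and 2 more WT-only regions, and their windows outside the 5 loci held 24 KO-only and 4 WT-only among 248 distinct regions (9.68%). ADAMTS12, also on chromosome 5, had 5 and 1, and ADAMTS10 and ADAMTS17 had 3 and 0 each. Family members differ in window length, and no test was made.

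The other families were lower. Of 8 other MGAT genes 5 had more KO-only and 0 more WT-only regions, with 6 and 1 among 84 (7.14%), of which MGAT4B held 1 and 1 and MGAT3 and MGAT4A 1 and 0 each. Several BPI fold genes share regions with the BPIFB4 window. Without these regions, 4 of 12 other BPI fold genes had more KO-only and 3 more WT-only, with 5 and 2 among 72 distinct regions (6.94%). LBP, the lipopolysaccharide-binding protein gene, had 3 and 0 and BPI 2 and 0, while the 3 and 0 at BPIFB3 share regions with BPIFB4. Of 22 other ArfGAP genes 5 had more KO-only and 3 more WT-only, with 16 and 15 among 366 (4.37%), including 3 and 3 at ARAP2 and 2 and 2 at both AGAP1 and ASAP2. Of 19 other FBXL genes 3 had more of each kind, with 5 and 4 among 281 (1.78%), including 1 and 2 at FBXL18, 2 and 0 at FBXL13 and 1 and 0 at FBXL14. The highest count in the family after the 7 at FBXL7 was thus 2.

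The KO-only count minus the WT-only count, in the same kind of window over the 4 libraries, was highest at 5 other genes with long windows. These differences, from 8 to 12, exceeded those of the chosen genes, 4 to 7, so these other genes were extremes rather than close matches. RBFOX1, a neuronal splicing factor with a window of 2574 kb, had 13 KO-only and 1 WT-only region, and KALRN, a guanine nucleotide exchange factor with 793.0 kb, had 12 and 1. SNX29 (697.6 kb) and TRAPPC9, a vesicle tethering subunit (830.9 kb), had 9 and 0 each, and NRCAM, a neuronal adhesion protein (409.1 kb), had 8 and 0. CCNE1, the cyclin E1 gene tied with ASAP1 and BPIFB4 in the choice, had 4 and 0 among 13 regions in a window of 112.3 kb.

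Over the whole series, all 4 regions of the DEK gene (chromosome 6, 18223860 to 18264530) were called in every list, which does not check a knockout by small insertions or deletions. Of 8 markers of a renal line, 5 were open at a start or end in all 4 libraries (PAX8, PAX2, CDH6, VIM and KRT18), and KRT8, CA9 and NNMT were open in none. Of 8 markers of other cell types, 6 were open in none, SYP was open in all 4 libraries and SFTPC in 3. An open start does not show expression.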

How the data were processed

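ATAC-seq peak lists of 2 DEK KO and 2 WT control libraries of 786-O cells were analysed, 1 list per library, so peaks were not called on pooled samples. The submitters' processing notes list MACS2 2.2.7.1, Bowtie2 2.2.5, cutadapt 1.18, Picard 2.26.9 and SAMtools 1.7 among others, and the build GRCh38, but no settings. A shift of reads for the transposase is not mentioned there. Per the labels' protocols, extraction and library steps describe RNA, so how the ATAC libraries were made is not given either. The deposited fold column is the ratio of pileup to background at the summit, the deposited p and q columns are −log10 values, and the deposited score column restates q. The lists give no read totals, so depth is unknown.

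Chromosomes 1 to 22 and X were analysed, and 135 to 167 peaks per list lay elsewhere. Peaks were merged and classed as described in the report, with Python 3.11.15, numpy 2.4.6, pandas 2.3.3, scipy 1.17.1 and matplotlib 3.10.9. The merging was tested on simulated data. Gene spans and starts came from RefSeq tables of GRCh38.p14. The members, family lists and markers were chosen with earlier results of these data known. 1 further marker is not reported here. The genes named were the 5 members, genes in their windows, up to 3 relatives per family with the most one-genotype regions, the 5 genes with the largest surplus, and CCNE1. With 2 libraries against 2, an exact permutation test cannot go below p = 0.333 (two-sided). No test was made. Alternatives were the window, the q limit, list length, the merging rule, the ranking column and leaving out each library.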

Additional observations from a re-analysis of the deposited data

How the results depend on the processing

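KO-only and WT-only counts over the 5 loci were 27 and 1. KO-only counts within 1.5 times of this were found with the gene span alone, with 100 kb flanks, with lists of equal length and with both other merging rules. They were 16 with −log10 q of at least 5 and 1 with the 50000 highest-ranked peaks of each list, the alternative in which WT-only calls outnumbered KO-only calls. WT-only counts were 0 with the gene span alone, 2 with 100 kb flanks, 4 with −log10 q of at least 5, 2 with lists of equal length, 3 with the 50000 highest-ranked peaks and 2 where an overlap of 50% of the shorter peak was asked for. Where a limit or a cut removes weaker peaks, a region with a DEK KO peak can be counted as WT-only. The WT-only share of all merged regions was not computed under the alternatives, so these WT-only counts have no background beside them. Leaving out a library makes the classes easier to meet, and gave 30 to 49 KO-only and 2 to 13 WT-only regions. KO-only counts were 49 and 43 without DEK KO replicates 1 and 2, and WT-only counts 6 and 2 without them and 13 and 11 without WT control replicates 1 and 2. The KO-only share of all regions, 6.26%, was 6.54% with −log10 q of at least 5, 5.16% with lists of equal length, 5.69% with the 50000 highest-ranked peaks, 5.83% with the 50% overlap, and 9.61% to 17.3% without a library. The median percentile of the DEK KO peaks at the KO-only regions, 32, was 27.6 when ranked by fold. Of 110 counts at single loci under an alternative, 32 moved by more than 1.5 times. No paired analysis was possible because no result is a test and the labels do not say that a replicate number ties libraries across genotypes. The lists hold no read counts, so peaks under the calling limit cannot be compared between genotypes.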
